A study of Mus musculus with 12 samples.

Results

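Open chromatin was compared between LSK cells taken straight from mouse marrow and LSK cells that had been grown in culture without a Notch ligand. All 3 libraries labelled LSK and all 3 labelled IgG were used, 6 of the 12 DNase-seq libraries in the series. In DNase-seq, nuclei are cut with DNase I and the short fragments released are sequenced. Places where they pile up are DNase I hypersensitive sites (DHSs), the promoters and enhancers open to regulatory proteins, and each appears in a library's list as a peak. Peaks of the 6 lists on the 19 autosomes and chromosome X were merged where they overlapped by at least 1 bp, which gave 93322 regions. A DHS was called gained when it had a peak in all 3 IgG libraries and in no LSK library, and lost when the reverse held.

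LSK cells are lineage-negative, SCA1-positive, KIT-positive cells, the fraction of C57BL/6J marrow that holds the haematopoietic stem cells and multipotent progenitors. The LSK group was freshly sorted and received no treatment. For the IgG group, LSK cells were grown in flasks coated with human IgG1 and Retronectin in a medium with stem cell factor, FLT-3 ligand, IL-6 and IL-11, so that cytokines were present and the Notch ligand was not. IL-7 is described only for cultures on the ligand. The remaining libraries, DN1, DN2a and DN2b, came from LSK cells grown on the Notch ligand Delta1 and sorted as successive T cell precursors. The age and sex of the mice and the time at which IgG cultures were harvested are not given in the sources used here, and no sort of the IgG cells is described. Replicates came from independent LSK isolates, but the labels do not tie an IgG library to an LSK library.

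Notch receptors are cut when a neighbouring cell presents a ligand, and the freed intracellular part joins the DNA-binding protein RBPJ to switch on target genes. In marrow progenitors this signal directs cells towards the T lineage, and without it progenitors given cytokines commonly turn into myeloid cells. Neutrophils, the most abundant of these, fill their granules in sequence with proteases and antimicrobial proteins under the control of C/EBP transcription factors. Stem and progenitor cells rely in turn on factors such as RUNX, GATA2, TAL1 and the ETS proteins, which also serve erythroid cells and megakaryocytes.

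The IgG lists were shorter than the LSK lists. LSK libraries held 53869, 54544 and 62377 peaks, and IgG libraries 37511, 32952 and 37510. The groups did not overlap (56930 ± 4729 and 35991 ± 2632, SD, n = 3 each, two-sided exact permutation test, p = 0.1, the smallest p that 3 against 3 can give). The lists carry no read totals, so depth is unknown, and a site that is open but weak is missed more readily in a short list. The comparison was therefore repeated at equal list length, in which each library kept its 32952 peaks of highest score, as many as the shortest list held. The cut fell at a score of 26, 28 and 31 in the LSK libraries and at 18, 2 and 16 in the IgG libraries, on a deposited scale that ran from 2 to 150 over these peaks and has no stated meaning. In bulk samples such as these, fewer cells of a type and a weaker signal per cell cannot be told apart.

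As deposited, 4282 of the 93322 DHSs were gained (4.59%) and 13425 were lost (14.4%), while 15461 had a peak in all 6 libraries. At equal list length the merged regions fell to 61286, of which 5580 were gained and 5423 were lost, and 13514 were shared. Losses outnumbered gains as deposited, and the counts were close at equal list length. A stricter class was formed so that no call could rest on weak peaks of a long list. A gained DHS was called stringent when each IgG library had one of its 32952 highest-scoring peaks there, with absence still judged on the whole LSK lists, and lost DHSs were treated in the same way. By this rule 4014 DHSs were stringent gained (4.30% of all) and 5004 stringent lost (5.36%). Nearly all gained DHSs passed (93.7%), and 37.3% of lost ones did. The filter was unequal by construction, since the score limit stood at percentiles 12.2, 0.0182 and 13.1 of the IgG lists and 38.6, 39.8 and 46.5 of the longer LSK lists. The lowest of the 3 scores had a median of 28 in stringent gained and 15 in the other gained DHSs, and of 35 in stringent lost and 21 in the other lost DHSs.

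**Figure D1:**
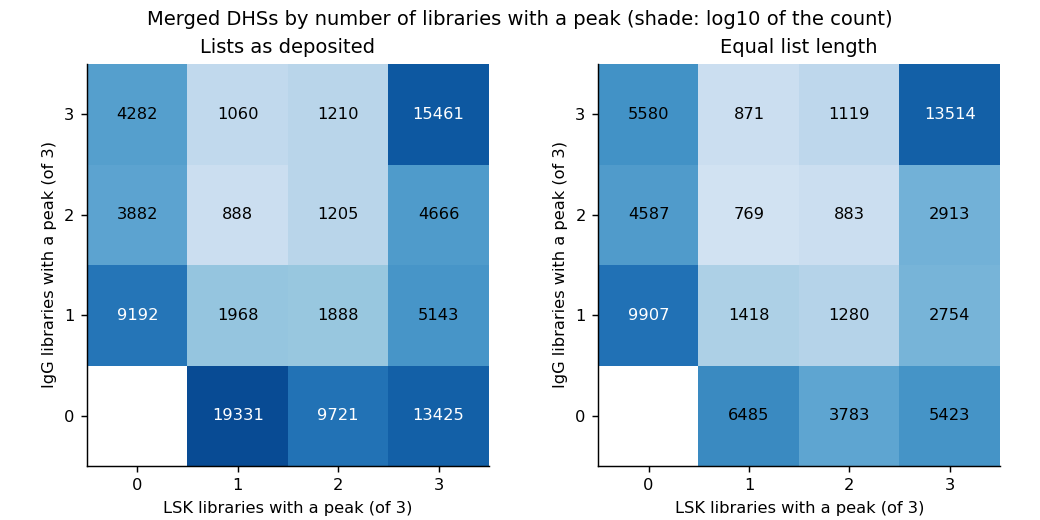
Number of merged DHSs by how many LSK libraries (x axis) and how many IgG libraries (y axis) had a peak, for lists as deposited and at equal list length, with shade on a log10 scale. The corner of gained DHSs grows from 4282 to 5580 and that of lost DHSs shrinks from 13425 to 5423 when lists are made equal.

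The DHSs that changed lay mostly away from promoters. Only 4.88% of stringent gained and 11.2% of stringent lost DHSs had their middle no more than 1 kb from a protein-coding start site, against 19.7% of all merged DHSs and 51.2% of those shared by all 6 libraries. Of the distal stringent gained DHSs, 55.0% lay in introns and 38.8% between genes, and the figures for distal stringent lost DHSs were 52.9% and 38.2%. Both lay near the 51.8% and 39.5% of all distal DHSs. The share of peaks at promoters was 26.4%, 24.9% and 23.5% in the LSK libraries and 30.0%, 31.0% and 29.2% in the IgG libraries. The groups did not overlap as deposited (24.9% ± 1.45 and 30.1% ± 0.901, SD, n = 3 each, exact permutation test, p = 0.1), but at equal list length the order turned round, to 33.6% ± 1.0 in LSK and 31.8% ± 0.734 in IgG (p = 0.1 in the same exact permutation test).

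The sequences of the leading distal DHSs are shown first, because letters recognised by C/EBP proteins were the feature that most set gained from lost DHSs among the motifs searched. The stringent distal DHSs with the highest median score percentile over their 3 libraries were taken, outside UTRs, as the central 200 bases on the plus strand of mm10. The score percentile is the rank of a peak's score within its own list, from 0 to 100. In gained DHSs capitals mark a C/EBP match, TTGCNNAA on either strand, where N is any base.

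gained DHS 1: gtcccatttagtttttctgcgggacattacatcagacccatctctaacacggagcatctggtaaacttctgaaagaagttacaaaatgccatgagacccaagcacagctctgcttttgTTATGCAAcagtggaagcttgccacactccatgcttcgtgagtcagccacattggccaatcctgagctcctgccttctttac
gained DHS 2: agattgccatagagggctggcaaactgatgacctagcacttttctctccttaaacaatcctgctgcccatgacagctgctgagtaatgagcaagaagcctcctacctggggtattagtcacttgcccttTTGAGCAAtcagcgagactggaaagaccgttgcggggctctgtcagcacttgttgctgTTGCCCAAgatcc
gained DHS 3: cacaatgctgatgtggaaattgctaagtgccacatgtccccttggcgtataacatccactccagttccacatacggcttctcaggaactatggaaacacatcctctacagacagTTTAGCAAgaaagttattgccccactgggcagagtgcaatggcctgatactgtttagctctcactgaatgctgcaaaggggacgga

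Gained DHS 1 (chr2:132599237-132599406) lay in an intron of the non-coding gene AU019990, 11.6 kb from the start of Gpcpd1, and stood at score percentiles 97.9, 97.5 and 92.4 in the IgG libraries. Gained DHS 2 (chr12:73755777-73755966) lay in an intron of Prkch, which encodes a protein kinase C, at percentiles 97.5, 97.5 and 95.1, and has 2 matches. Gained DHS 3 (chr6:52861377-52861546) lay in an intron of Jazf1, a zinc finger protein, at 97.3, 98.0 and 93.1. The rule and the ranking that picked these DHSs fix their place in the lists. A peak of a DN library overlapped gained DHS 1 in 1 of 6 libraries and the other two in 0 of 6.

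For lost DHSs, capitals mark a GATA match (AGATAA, or TTATCT on the other strand) or a RUNX match (TGTGGTT, or AACCACA on the other strand). The DHS ranked first among lost ones was exonic in the non-coding gene Gm26917 on chromosome 17, with the highest score on the scale, 150, in all 3 LSK libraries, and has no match. The central 200 bases of this DHS had a GC content of 71.5%, beside a mean of 50.6% in distal stringent lost DHSs. How uniquely reads map there was not tested, so no regulatory change is read from its score. This DHS is not shown, and the next 3 are given.

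lost DHS 2: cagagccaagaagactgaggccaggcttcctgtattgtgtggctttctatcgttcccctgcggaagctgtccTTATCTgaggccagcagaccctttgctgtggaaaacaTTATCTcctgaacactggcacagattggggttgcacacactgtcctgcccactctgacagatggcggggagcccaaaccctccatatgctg
lost DHS 3: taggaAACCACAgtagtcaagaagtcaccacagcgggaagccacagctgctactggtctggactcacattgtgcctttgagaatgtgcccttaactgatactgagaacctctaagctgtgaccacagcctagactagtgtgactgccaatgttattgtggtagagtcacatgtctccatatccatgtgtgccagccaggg
lost DHS 4: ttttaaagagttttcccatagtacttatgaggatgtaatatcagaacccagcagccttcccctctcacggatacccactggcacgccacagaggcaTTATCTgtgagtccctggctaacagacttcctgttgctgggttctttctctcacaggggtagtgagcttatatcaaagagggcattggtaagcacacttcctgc

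Lost DHS 2 (chr17:70488917-70489106) lay in an intron of Dlgap1 at percentiles 96.5, 98.9 and 98.7 in the LSK libraries, with 2 GATA matches, and had a peak in 2 of 6 DN libraries. Lost DHS 3 (chr10:3281097-3281266) lay between genes, 13.4 kb from the start of H60c, at 97.0, 98.0 and 98.5. Lost DHS 4 (chr5:116029117-116029286) was exonic in Gm13842, also non-coding, 4.69 kb from the start of Prkab1, at 97.8, 97.6 and 99.5. Both of these had a peak in all 6 DN libraries.

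Matches to 16 short motifs were then counted in the central 200 bases of every DHS, on both strands. C/EBP matches were found in 42.0% of the 3818 distal stringent gained DHSs, 7.11% of the 4443 distal stringent lost DHSs and 14.4% of all 74960 distal DHSs (12.8% of all merged DHSs). AP-1 matches (TGANTCA), the site of FOS and JUN proteins, were in 22.9% of gained, 7.99% of lost and 12.2% of all distal DHSs. The opposite order was found for GATA (7.75%, 15.6% and 9.88%), RUNX (9.48%, 15.9% and 11.0%) and the E-box CAGCTG (12.4%, 19.8% and 14.4%), the site of basic helix-loop-helix factors. The PU.1 letters GAGGAAGT, the site of an ETS factor needed by all myeloid cells, did not separate the classes, at 7.20%, 7.99% and 8.29%. AGGGGGC, the core of the CTCF site, was in 1.44% of gained, 7.31% of lost and 6.89% of all distal DHSs. The letters GTGGGAA, bound by RBPJ, were in 3.51% of gained, 4.59% of lost and 4.35% of all distal DHSs. Gained distal DHSs had a GC content of 46.2% ± 5.55 (SD over DHSs), lost ones 50.6% ± 6.92 and all distal DHSs 48.8% ± 7.55, and the part of base composition in the motif shares was not tested.

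**Figure D2:**
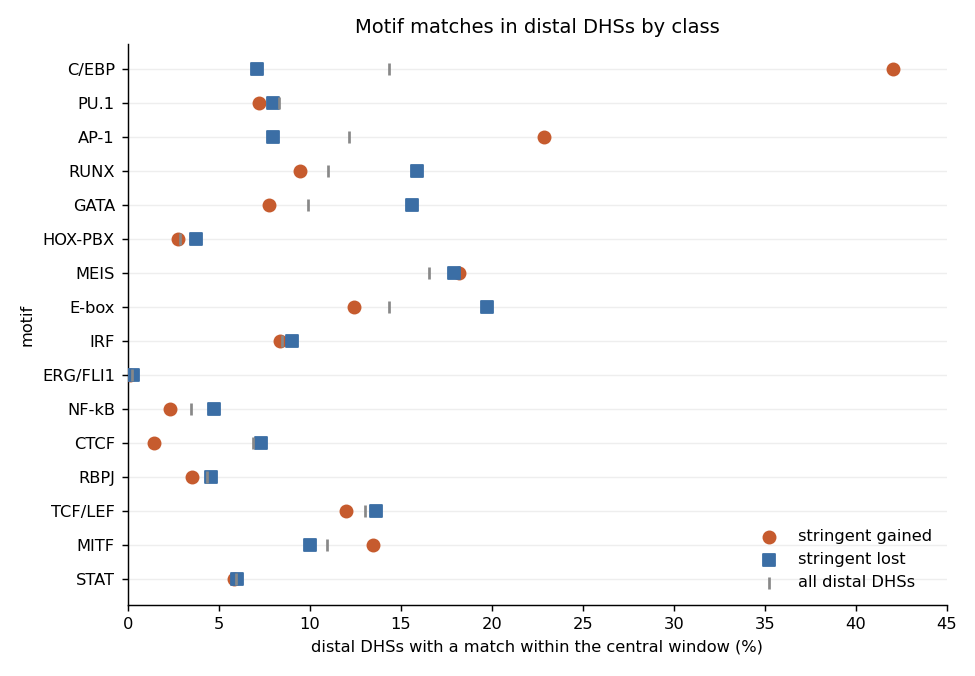
Share of distal DHSs with a match to each of 16 motifs in the central 200 bases (x axis, percent), for stringent gained, stringent lost and all distal DHSs. C/EBP and AP-1 stand to the right in gained DHSs, and GATA, RUNX and the E-box stand to the right in lost DHSs.

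At promoters, a gene was called open in a library that had a peak centred 1 kb or less from its start site. Of 21755 protein-coding genes, 74 promoters were gained (0.340%) and 877 were lost (4.03%). At equal list length 137 were gained (0.630%) and 397 lost (1.82%), and 70 gained and 355 lost promoters held at both lengths. Without IgG replicate 3 the number gained as deposited was 115. Gained promoters were poor in CpG, with an observed/expected ratio in the 2 kb around the start site of 0.237 ± 0.136 (SD over promoters), and 65 of the 74 were under 0.4. Lost promoters had 0.497 ± 0.200, promoters open in all 6 libraries 0.643 ± 0.162, promoters open in none 0.271 ± 0.194 and all genes 0.454 ± 0.251.

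The 8 gained promoters with the highest median score percentile, among those that held at equal list length, were those of Hal, S100a9, S100a8, Ngp, Rnf11, Slc11a1, Hp and Orm1. Hal, which encodes histidine ammonia-lyase, stood at percentiles 96.3, 94.3 and 91.4 in the IgG libraries. Slc11a1, a metal transporter of phagocyte vesicles, stood at 89.7, 89.6 and 89.7, and Rnf11, a ubiquitin ligase, at 91.2, 92.5 and 90.6. These 3 promoters ranked alike in all IgG libraries. Hp encodes haptoglobin, which binds free haemoglobin and is stored in neutrophil granules, and stood at 91.5, 84.0 and 88.8. Orm1 encodes an acute phase protein, and stood at 88.1, 89.1 and 71.6, lowest in IgG replicate 3. No DN library had a promoter peak at any of these 8 genes.

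Lineage genes were described by 16 lists of 20 to 24 genes each, of which 320 entries are distinct genes in the annotation. Among these genes 8 promoters were gained and 17 lost, beside 0.340% and 4.03% of all genes. Neutrophil genes led the gains, with 7 of 22 promoters gained and 0 lost, beside 0.340% of all genes gained. At equal list length 9 of the 22 were gained, beside 0.630% of all genes. The number of open neutrophil promoters was 3, 4 and 3 in the LSK libraries and 13, 11 and 13 in the IgG libraries. At equal list length it was 1, 2 and 0 in LSK and again 13, 11 and 13 in IgG. The groups stood apart at both lengths, while the number of open promoters over all genes was lower in IgG (8904 to 9589) than in LSK (11087 to 11428).

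**Figure D3:**
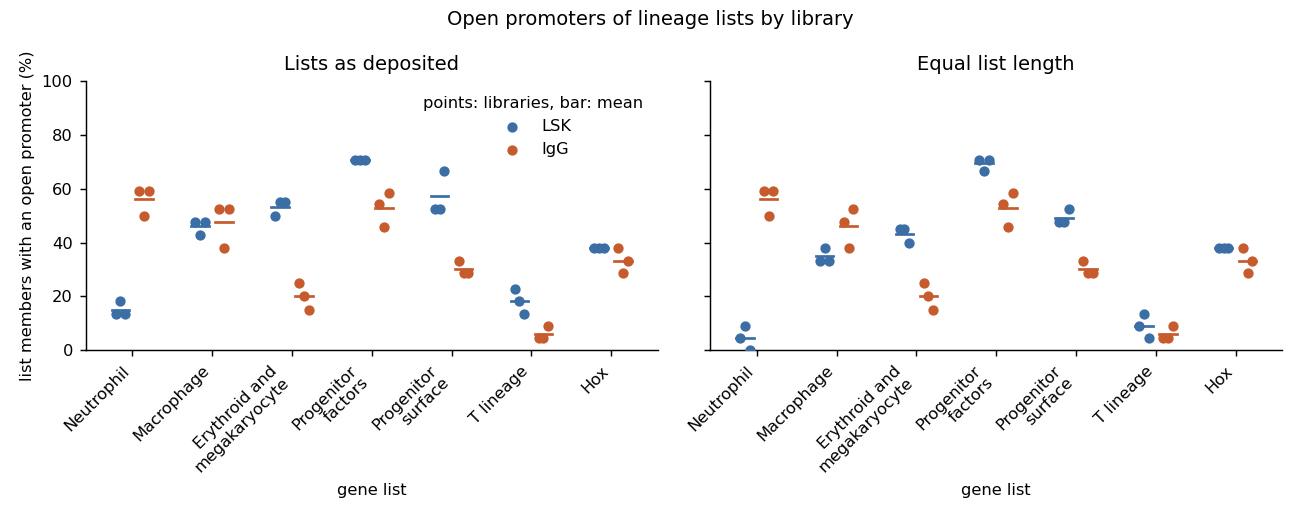
Share of list members with an open promoter (y axis, percent) in each LSK and IgG library, for 7 gene lists, with a bar at the mean of 3 libraries, for lists as deposited and at equal list length. The neutrophil list is higher in every IgG library. The erythroid and megakaryocyte list and both progenitor lists are higher in every LSK library, and the T lineage list overlaps at equal list length. The share over all genes, not plotted, is also higher in every LSK library. It is 51.0% to 52.5% in LSK and 40.9% to 44.1% in IgG as deposited. At equal list length it is 45.2% to 46.1% and 40.9% to 43.0%.

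Among granule proteases and enzymes, Ctsg (cathepsin G, a serine protease of primary granules) had a promoter peak at percentiles 86.6, 84.7 and 88.3 in IgG. Mmp8 (neutrophil collagenase) stood at 83.5, 80.0 and 90.2. Both ranked highest in IgG replicate 3. The primary granule genes Mpo (myeloperoxidase) and Elane (neutrophil elastase) had a promoter peak in IgG replicate 3 alone, at 77.2 and 66.9, so neither was gained by the rule. Each had a stringent gained DHS just upstream of the window. That of Mpo (chr11:87790157-87790346, 3.33 kb upstream) stood at 80.5, 86.2 and 77.2 in the 3 IgG libraries, and that of Elane (chr10:79884577-79884746, 1.59 kb upstream) at 76.0, 43.4 and 62.8.

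The other gained neutrophil promoters belong to genes of antimicrobial and cytosolic proteins. S100a8 and S100a9 encode the 2 chains of calprotectin, the main calcium-binding protein of neutrophil cytosol, and lie side by side on chromosome 3. S100a8 (promoter DHS at chr3:90668917-90669106) stood at percentiles 93.5, 97.7 and 69.3 in IgG replicates 1, 2 and 3, and S100a9 at 93.8, 97.8 and 61.4. Ngp (neutrophilic granule protein) stood at 93.5, 92.9 and 48.9. IgG replicate 3 was the lowest at each of these genes. Lcn2 (lipocalin 2, which binds bacterial siderophores) stood at 83.5, 83.3 and 50.9, and Fcnb (ficolin B, which binds microbial sugars) at 82.4, 76.3 and 61.4, also lowest in replicate 3. None of the 5 had a promoter peak in LSK as deposited.

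Camp, which encodes the antimicrobial cathelicidin, and Ms4a3, a surface protein of granulocyte precursors, were gained only at equal list length. Camp stood at percentiles 97.7, 91.8 and 73.6 in IgG and had a weak peak at 6.52 in LSK replicate 3. Ms4a3 stood at 88.1, 90.0 and 85.2 in IgG and at 10.2 in LSK replicate 1. Both LSK peaks were below the limit of equal list length. No receptor promoter of the list was gained. Csf3r, the G-CSF receptor, was open in 2 LSK and 2 IgG libraries, Itgam (the integrin CD11b) in 2 LSK libraries and all 3 IgG libraries, and Cxcr2, Fpr1 and Fpr2 had no promoter peak in any of the 6. Away from the promoter, Csf3r had a stringent gained DHS with a C/EBP match 6.69 kb upstream (85.1, 78.1 and 54.6 in IgG), and Fpr1 had one without a match 12.1 kb downstream (81.7, 88.5 and 69.3).

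The promoter DHSs of Fcnb, Lcn2, Mmp8 and Ngp each hold a C/EBP match, marked by capitals in the UTR-free stretch of their central 200 bases (plus strand, mm10). Those of the other 3 gained neutrophil promoters, Ctsg, S100a8 and S100a9, hold none in their central 200 bases.

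Fcnb (chr2:28084886-28085071): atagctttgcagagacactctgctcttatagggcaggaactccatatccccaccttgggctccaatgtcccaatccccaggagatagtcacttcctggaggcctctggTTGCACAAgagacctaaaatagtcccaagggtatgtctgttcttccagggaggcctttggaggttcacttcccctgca
Lcn2 (chr2:32387798-32387991): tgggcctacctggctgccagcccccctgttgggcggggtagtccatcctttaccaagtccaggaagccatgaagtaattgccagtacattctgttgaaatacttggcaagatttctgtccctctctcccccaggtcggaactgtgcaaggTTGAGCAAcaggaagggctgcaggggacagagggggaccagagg
Mmp8 (chr9:7558302-7558455): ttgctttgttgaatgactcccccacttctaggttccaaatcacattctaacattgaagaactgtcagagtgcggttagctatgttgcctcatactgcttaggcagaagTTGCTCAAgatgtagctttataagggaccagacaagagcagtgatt
Ngp (chr9:110419642-110419746): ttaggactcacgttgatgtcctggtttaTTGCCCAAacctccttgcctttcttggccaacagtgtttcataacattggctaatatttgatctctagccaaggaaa

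The match in Lcn2 lies within the gene, and those of the other three lie before the start site. The C/EBP letters were found in 32.1% of the 196 stringent gained DHSs at promoters, 5.35% of the 561 stringent lost ones and 5.64% of the 7909 promoter DHSs shared by all 6 libraries. The GC content of these classes was 50.6%, 59.5% and 63.7% in turn, and its part in the motif shares was not tested. Of 102 DHSs nearest to a neutrophil gene, within 100 kb of its start site, 18 were stringent gained (17.6%) and 3 stringent lost (2.94%), beside 4.31% and 5.29% of all DHSs within that distance. Those 18 belonged to 14 genes. A C/EBP match was held by 10 of the 18, beside 42.0% of distal and 32.1% of promoter stringent gained DHSs. No DN library had a peak at 14 of the 18, near the 75.3% of all stringent gained DHSs.

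In the macrophage list 0 of 21 promoters in the annotation were gained and 0 lost as deposited, and 10, 9 and 10 promoters were open in the LSK libraries against 11, 8 and 11 in IgG. With lists of equal length 7, 8 and 7 were open in LSK and 10, 8 and 11 in IgG, and 1 was gained, beside 0.630% of all genes. Cd68, a lysosomal glycoprotein of macrophages, was open in all 6 libraries. Around these genes 12 of 143 DHSs were stringent gained (8.39%, beside 4.31% of all DHSs within 100 kb) and 8 stringent lost (5.59%, beside 5.29%). Tlr4, the receptor for bacterial endotoxin, had a stringent gained DHS in an intron 24.6 kb downstream of its start, at percentiles 86.1, 84.7 and 82.5, and another 29.6 kb downstream. Cx3cr1, the fractalkine receptor of monocytes, had one in an intron at 69.8, 80.0 and 91.0 and one in an exon, without a promoter peak in any library. Mast cell and basophil genes gained 0 of 20 promoters and lost 1, near the 0.340% and 4.03% of all genes. The lost one was Cpa3 (mast cell carboxypeptidase), open in LSK at 30.2, 31.6 and 52.7, which was not lost at equal list length. Of 69 DHSs nearest to these genes 5 were stringent gained (7.25%) and 7 stringent lost (10.1%), beside 4.31% and 5.29% overall. The dendritic list also gained 0 of 20 promoters and lost 1, near the same shares of all genes. That was Itgax, which encodes the integrin CD11c, lost as deposited only (10.2, 22.4 and 24.1 in LSK). Of 113 DHSs nearest to genes of the dendritic list, 5 were stringent gained (4.42%, beside 4.31% overall) and 3 stringent lost (2.65%, beside 5.29%).

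Losses were most frequent among erythroid and megakaryocyte genes, with 5 of 20 promoters lost and 0 gained, beside 4.03% of all genes lost. At equal list length 3 of 20 were lost, beside 1.82%. Open promoters of the list numbered 10, 11 and 11 in LSK and 5, 4 and 3 in IgG. At equal list length they numbered 9, 9 and 8 against 5, 4 and 3. As deposited, 51.0% to 52.5% of all promoters were open in the LSK libraries and 40.9% to 44.1% in the IgG libraries. At equal list length these shares were 45.2% to 46.1% and 40.9% to 43.0%. The 3 that held at both lengths are platelet surface genes. Itga2b, the integrin CD41, stood at percentiles 87.9, 87.3 and 93.5 in LSK. Gp1ba, a chain of the von Willebrand factor receptor, stood at 88.9, 76.9 and 88.3, and its partner Gp9 at 46.2, 51.4 and 61.3. No IgG library had a promoter peak at these genes. The DHS at Itga2b, next to its start site, also had a peak in all 6 DN libraries, whereas the promoter DHSs of Gp1ba and Gp9 had one in 1 of 6.

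The erythropoietin receptor gene Epor (54.9, 42.2 and 46.5 in LSK) was lost as deposited only. Of 96 DHSs nearest to a gene of the list, 12 were stringent lost (12.5%, beside 5.29% of all DHSs within 100 kb) and 2 stringent gained (2.08%, beside 4.31%). They included the DHS at the start of Pf4 (platelet factor 4), at percentiles 90.6, 84.0 and 91.7 in LSK.

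Some progenitor promoters were lost, while others stayed open. Among 24 transcription factors of stem and progenitor cells, 17 promoters were open in each LSK library and 13, 11 and 14 in the IgG libraries. Of all promoters, 51.0% to 52.5% were open in LSK and 40.9% to 44.1% in IgG. In the list 2 were lost and 0 gained, beside 4.03% of all genes lost. Mycn, a MYC family factor, stood at 90.6, 87.9 and 85.2 in LSK, had a peak in all 6 DN libraries and was lost at both list lengths. Prdm16, a stem cell maintenance factor, stood at 50.8, 28.6 and 59.8 and was lost as deposited only. Meis1, a partner of HOX proteins, was open in all 6 libraries, at 87.4, 96.3 and 94.1 in LSK and 70.7, 78.1 and 86.3 in IgG. Around the factor genes 20 of 224 DHSs were stringent lost (8.93%, beside 5.29% overall) and 10 stringent gained (4.46%, beside 4.31%).

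Among 21 surface genes of progenitors, open promoters numbered 11, 11 and 14 in LSK and 7, 6 and 6 in IgG. The shares of all promoters were 51.0% to 52.5% in LSK and 40.9% to 44.1% in IgG. In this list 3 were lost at both list lengths, beside 4.03% of all genes lost as deposited and 1.82% at equal list length. Cd34, the sialomucin used to sort progenitors, stood at 58.6, 75.1 and 52.7 in LSK. Robo4, a guidance receptor that anchors stem cells in marrow, stood at 78.1, 74.2 and 84.1, and Cd93, a C-type lectin of early progenitors, at 68.9, 74.2 and 67.0. None of the 3 had a peak in IgG. Around the surface genes 11 of 142 DHSs were stringent gained (7.75%) and 6 stringent lost (4.23%), beside 4.31% and 5.29% of all DHSs within 100 kb of a start site. The promoter of Kit, whose product the cells were sorted for, was open in all 6 libraries, at 89.3, 92.2 and 84.1 in LSK and 69.8, 14.2 and 62.8 in IgG. Flt3, the receptor of a cytokine in the medium, stood at 94.0, 92.2 and 91.7 in LSK, at 29.5 and 44.7 in IgG replicates 1 and 3, and had no peak in IgG replicate 2. The label LSK is matched by open Kit, Cd34, Flt3, Hlf and Meis1 promoters in every LSK library, 5 of 7 markers chosen for it. The same number was open in 5 DN libraries and 4 in the other, and 4, 2 and 4 were open in IgG, so these markers do not single out LSK cells from cells grown on Delta1. Ly6a (which encodes SCA1) and Mecom had no peak in any of the 6 libraries within 1 kb of the start site used.

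**Figure D4:**
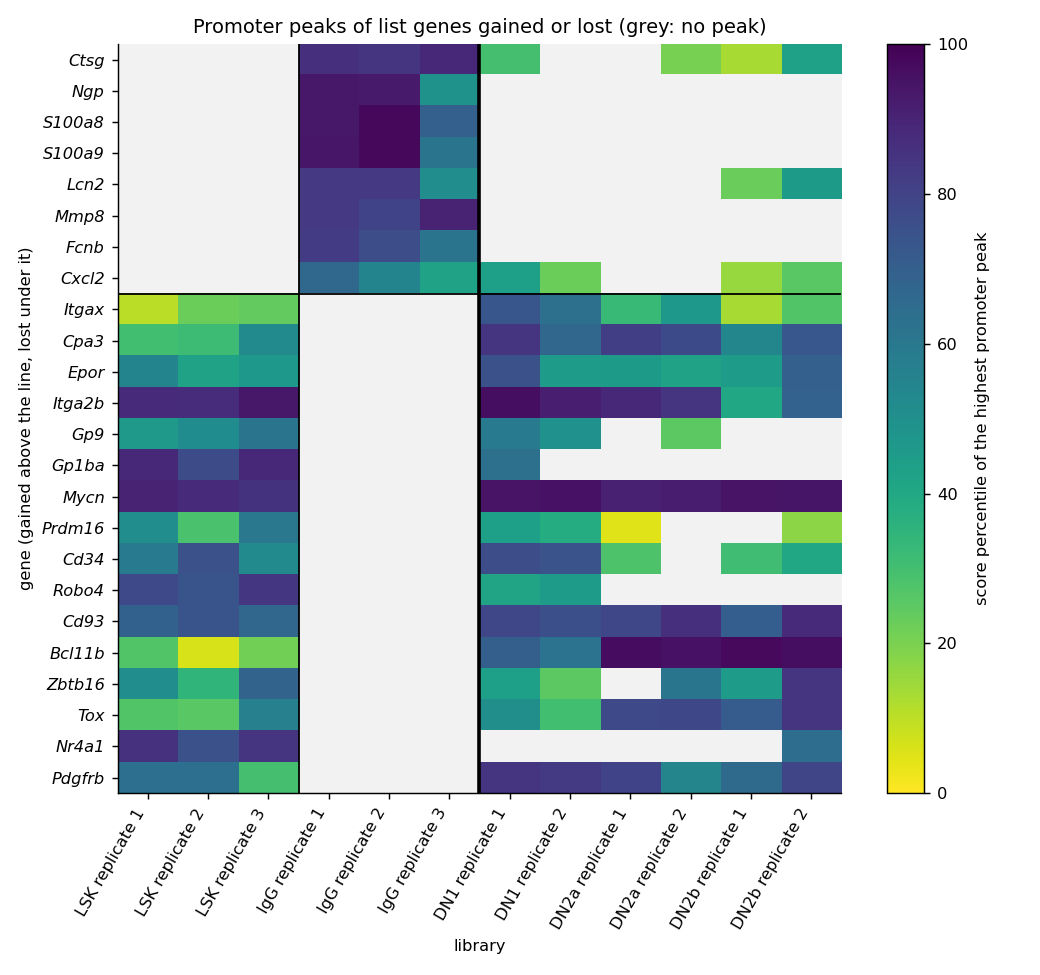
Score percentile of the highest promoter peak (colour, 0 to 100) for the 8 gained and 16 of the 17 lost promoters of list genes (rows) in 12 libraries (columns), with grey for no peak. Neutrophil rows are filled in IgG and mostly grey elsewhere, whereas most lost rows are filled again in the DN libraries.

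T lineage genes had few open promoters in either group, beside 51.0% to 52.5% of all promoters open in LSK and 40.9% to 44.1% in IgG. Of 22 promoters, 5, 4 and 3 were open in LSK and 1, 1 and 2 in IgG, and the counts were 2, 3 and 1 against 1, 1 and 2 at equal list length, where the groups overlapped. Bcl11b, the T lineage commitment factor, was the 1 lost promoter, as deposited only, with low LSK percentiles of 27.3, 6.12 and 21.3. That is 1 of 22, near the 4.03% of all genes lost. Away from promoters, 10 of 96 DHSs nearest to T lineage genes were stringent lost (10.4%, beside 5.29% overall) and 2 stringent gained (2.08%, beside 4.31%). They included 3 around Lef1, which encodes a factor related to TCF1, 1 located 35.6 kb upstream of Tcf7 (the TCF1 gene, at 77.3, 74.2 and 76.3 in LSK) and 1 in an intron of Il2ra (the IL-2 receptor alpha chain, 81.7, 82.7 and 86.8). The Tcf7 and Il2ra DHSs had a peak in all 6 DN libraries, and so did 2 of the 3 around Lef1. Of all stringent lost DHSs, 51.4% had one in all 6.

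The other lymphoid lists had no promoter loss that held at equal list length. B lineage genes lost 0 of 20 promoters, and 8 of 93 DHSs nearest to them were stringent lost (8.60%, beside 5.29% overall) and 4 stringent gained (4.30%, beside 4.31%). Among the lost ones 4 were nearest to Dntt, the terminal transferase that adds bases to antigen receptor genes. In the NK and innate lymphoid list Zbtb16 (50.8, 34.5 and 68.3 in LSK) and Tox (27.3, 25.6 and 56.4), factors of innate lymphoid development, were lost as deposited only. They were 2 of 20 promoters, beside 4.03% of all genes lost. Of 115 DHSs nearest to genes of the list, 9 were stringent lost (7.83%) and 4 stringent gained (3.48%), beside the same 5.29% and 4.31%. Nfil3, a factor of NK and myeloid cells, was open in all 6 libraries as deposited and gained at equal list length, with percentiles of 36.0, 16.2 and 39.6 in LSK and 87.6, 66.9 and 65.5 in IgG. It was the 1 gained promoter of the 20 at that length, beside 0.630% of all genes.

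Genes of the Notch pathway neither gained nor lost a promoter as deposited. Open promoters of the 20 genes numbered 10, 11 and 10 in LSK and 11, 8 and 10 in IgG. Hey1, a direct target of the RBPJ complex, had LSK percentiles of 58.6, 44.6 and 50.8 and a weak peak at 9.68 in IgG replicate 1 alone, and was lost at equal list length. It was the 1 lost promoter of the 20 at that length, beside 1.82% of all genes. Of 153 DHSs nearest to genes of the Notch list, 13 were stringent gained and 13 stringent lost (8.50% each, beside 4.31% gained and 5.29% lost overall). The receptor gene Notch2 had the most stringent gained DHSs of any gene, 7 of its 22 nearest DHSs, between 21.9 kb upstream and 55.9 kb downstream of its start. The strongest of the 7 by median percentile (chr3:98032357-98032526) stood at 81.7, 80.0 and 78.0 in IgG. None of the 7 had a peak in a DN library, and neither did 75.3% of all stringent gained DHSs. Another 3 DHSs nearest to the gene were stringent lost, and 5 or 6 DN libraries had a peak at each of them. Of all stringent lost DHSs, 51.4% had a peak in all 6 DN libraries. Hes1, the classic Notch target, had 2 stringent lost DHSs, of which the 1 located 2.59 kb downstream of its start had a peak in all 6 DN libraries and the other in 0.

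Genes were then ranked by how many of their nearest DHSs were in a stringent class, so that their counts are a description of the choice, beside 4.31% gained and 5.29% lost of all DHSs within 100 kb. After Notch2, the next 7 by gained DHSs were Zmiz1, Lyst, Gpr141, Sirpa, Zfp36l2, Tomm20 and St3gal1, with 5 or 6 each. Sirpa, an inhibitory receptor of myeloid cells, had 5 of 11 nearest DHSs gained and 0 lost. Lyst, which controls the size of lysosomes and granules, had 6 of 18 gained and 2 lost. Zmiz1 had 6 of 26 gained and 3 lost, and St3gal1 5 of 21 gained and 3 lost. The leading 8 by lost DHSs were Zfp516, with 7 of 26, and Adgrg1, Cog6, Mbnl1, Smad3, Egr3, Cbfa2t3 and Cxxc5, with 4 to 6 each. Other genes with 4, such as Dntt, were tied with the last of these and set after them by total score percentile. Adgrg1, an adhesion receptor of stem cells, had 6 of 14 lost and 0 gained. Cbfa2t3, a corepressor of the TAL1 complex, had 4 of 14 lost and 0 gained. Mbnl1, a splicing regulator, had 5 of 28 lost and 4 gained.

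The lost promoters with the highest median percentile, among those that held at equal list length, were Gm49391 and Ctla2a, whose start sites share their peaks (93.3, 96.5 and 99.4 in LSK), Klhl6, Sla2, Myct1, F2rl3, Olfr646 and Dach1. Klhl6, which takes part in B cell receptor signalling, stood at 96.2, 91.8 and 95.6. Sla2, an adaptor that dampens antigen receptor signalling, stood at 94.6, 95.4 and 93.5. Both also had a peak in all 6 DN libraries. Myct1, named as a target of MYC, stood at 93.6, 93.2 and 97.3 and had a peak in both DN1 libraries and in no DN2a or DN2b library. F2rl3, a thrombin receptor of platelets, stood at 91.8, 90.2 and 95.9. Olfr646 is an olfactory receptor gene, at 86.4, 90.6 and 92.1, and Dach1, a transcription factor, stood at 90.2, 76.0 and 90.5.

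Cytokine and inflammatory genes changed at few promoters. In the list of AP-1 and inflammatory genes, Cxcl2, a chemokine that attracts neutrophils, was gained (66.6, 54.9 and 42.4 in IgG) and Nr4a1, an immediate early nuclear receptor, was lost (85.9, 75.1 and 84.7 in LSK), both also at equal list length. Around the 20 genes, 14 of 178 DHSs were stringent gained (7.87%) and 6 stringent lost (3.37%), beside 4.31% and 5.29% overall. Among 24 cytokine receptor genes 0 promoters were gained or lost as deposited, and 14 of 205 DHSs were stringent gained (6.83%) and 11 stringent lost (5.37%), the latter near the share of all DHSs. The 20 myeloid transcription factor genes had 0 gained and 0 lost promoters as deposited, with 13 open in all 6 libraries. At equal list length 1 was gained, beside 0.630% of all genes. Of 208 DHSs nearest to them 11 were stringent gained (5.29%, beside 4.31% overall) and 14 stringent lost (6.73%, beside 5.29%), both near the shares of all DHSs. The 21 Hox genes also had 0 gained and 0 lost promoters, and none of the 30 DHSs nearest to them was in either stringent class. Of 20 markers of cells other than blood cells, 1 promoter was lost, near the 4.03% of all genes. It was that of Pdgfrb, a growth factor receptor of stromal cells, lost as deposited only (63.5, 63.6 and 29.5 in LSK). In any of the 6 libraries 2 to 6 of the 20 promoters were open. Of 114 DHSs 6 were stringent gained and 6 stringent lost (5.26% each), near the 4.31% and 5.29% overall.

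The DN libraries were not used by the rule. Of stringent gained DHSs, 18.3% and 10.5% had a peak in the DN1 libraries, 8.45% and 5.23% in DN2a, and 5.78% and 11.8% in DN2b. Of stringent lost DHSs the shares were 90.2% and 79.6% in DN1, 74.5% and 64.2% in DN2a, and 65.4% and 79.9% in DN2b. All merged DHSs had a peak in 43.3% to 66.2%. In every DN library the lost DHSs thus lay above and the gained DHSs below the share for all DHSs. By the rule a lost DHS has a peak in all 3 LSK libraries. All merged DHSs include 19331 seen in 1 LSK library alone and 9192 seen in 1 IgG library alone. DHSs shared by all 6 libraries had a peak in 88.2% to 98.3%. The part of this selection for repeated peaks in the shares was not tested. The DN lists ran from 57729 to 111582 peaks. At equal list length 3.04% to 4.04% of stringent gained, 44.8% to 56.6% of stringent lost and 28.1% to 32.2% of all merged DHSs had a peak. Lost DHSs taken without the stringent rule had one in 27.3% to 34.2% at that length, above the share for all DHSs in 4 libraries and below it in both DN2b libraries. Of stringent gained DHSs, 75.3% had no peak in any DN library, beside 25.5% of all merged DHSs. Of stringent lost DHSs, 51.4% had a peak in all 6, beside 32.3% of all merged DHSs and 84.0% of those shared by LSK and IgG.

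**Figure D5:**
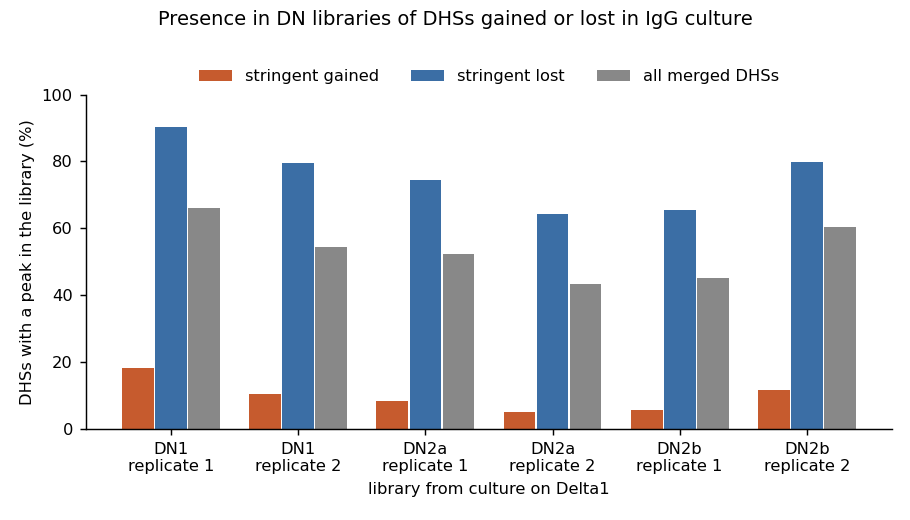
Share of stringent gained, stringent lost and all merged DHSs with a peak (y axis, percent) in each of 6 DN libraries from culture on Delta1. Lost DHSs range from 64.2% to 90.2%, gained DHSs from 5.23% to 18.3% and all DHSs from 43.3% to 66.2%.

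DHSs present in all 6 libraries were compared by score rank. Each was ranked from 0 to 100 among the 15461 shared DHSs of its library, and IgG was compared with LSK by limma with Benjamini-Hochberg adjustment. The rank was higher in IgG at 1751 DHSs (11.3%) and lower at 1697 (11.0%) at an adjusted p under 0.05. Without LSK replicate 1, 2 or 3 in turn, a fit on fewer libraries, the higher DHSs numbered 1083, 1036 and 1040 and the lower ones 846, 810 and 787. At the 7909 promoter DHSs 450 were higher and 811 lower, and at the 7552 distal ones 1301 were higher and 886 lower. The 5 with the highest moderated statistic were nearest to Slc22a15, Hcar2, E230025N22Rik, Trib1 and Nat9. The DHS nearest to Hcar2 (chr5:123832377-123832586, 33.0 kb away), a receptor of neutrophils and macrophages for hydroxy acids, rose from ranks of 9.49, 0.401 and 2.33 in LSK to 93.7, 98.8 and 98.3 in IgG, a difference of 92.8 ± 4.24 (SE, limma adjusted p = 0.000400). That nearest to Trib1, 136 kb away, which encodes a pseudokinase that lowers C/EBP-alpha protein, rose from 4.14, 1.97 and 4.40 to 86.3, 80.7 and 83.4 (79.9 ± 3.71, SE, limma adjusted p = 0.000400). Both were picked for this difference.

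The 5 at the other end were nearest to Cblc, Ppm1h, Cast, Nabp1 and Lifr. In an intron of Cblc, a ubiquitin ligase gene, the rank fell from 89.0, 91.3 and 90.3 in LSK to 0.430, 5.41 and 8.74 in IgG (-85.4 ± 3.95, SE, limma adjusted p = 0.000400). In a DHS 127 kb from the start of Lifr, the receptor of leukaemia inhibitory factor, it fell from 79.1, 79.9 and 82.4 to 20.1, 16.4 and 11.6 (-64.4 ± 4.01, SE, limma adjusted p = 0.000421).

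Shared DHSs nearest to list genes also differed in rank. Among DHSs nearest to myeloid transcription factors 11 of 47 were higher and 5 lower in IgG, where 11.3% of all shared DHSs were higher and 11.0% lower. The DHS at the start of Cebpd, a C/EBP factor, rose from 20.2 ± 6.99 to 83.4 ± 3.68 (SD, n = 3 each, limma adjusted p = 0.000671), and that at the start of Cebpa, which is needed to make granulocytes, from 58.9 ± 8.69 to 89.7 ± 2.84 (SD, n = 3 each, limma adjusted p = 0.0101). Those lower in IgG included a DHS 22.4 kb from the start of Id2, an inhibitor of basic helix-loop-helix factors, which fell from 84.2 ± 6.71 to 8.94 ± 6.60 (SD, n = 3 each, limma adjusted p = 0.000566). DHSs nearest to Id3 and Egr2 fell too, by 34.6 and 39.7. In the macrophage list 7 of 20 were higher and 2 lower. Among them were the DHS 9.05 kb from the start of the lysozyme gene Lyz1, which rose from 12.3 ± 1.49 to 86.3 ± 8.31 (SD, n = 3 each, limma adjusted p = 0.000530), and that at the start of Cd68, from 64.6 ± 7.13 to 94.5 ± 0.690 (SD, n = 3 each, limma adjusted p = 0.00719). The 2 lower ones were at the start of Fcgr1, an Fc receptor gene, where the rank fell by 27.2, and in an intron of Mrc1, the mannose receptor gene, where it fell by 22.7. Another DHS nearest to Mrc1 was higher in IgG, by 20.2. In the neutrophil list 2 of 6 were higher and 0 lower. Among DHSs nearest to progenitor surface genes 6 of 18 were higher and 4 lower. That 37.2 kb from the start of Flt3 fell from 53.3 ± 6.41 to 9.34 ± 12.1 (SD, n = 3 each, limma adjusted p = 0.00762), whereas 2 DHSs nearest to Cd93 rose by 44.3 and 43.8, and others nearest to Esam, Prom1 and Cd34 by 37.2, 36.1 and 29.1. For the progenitor factors 6 of 37 were higher and 6 lower, so rank moved both ways within that list.

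Markers of other cell types were mostly without a peak. Pax5 (B cells), Ms4a2 and Fcer1a (mast cells), Cdh5 (endothelium), Epcam (epithelium) and Alb (liver) had no promoter peak in any of the 6 libraries. Ebf1, a B lineage factor, had one in all 3 LSK libraries and in IgG replicate 3, and Cpa3 in LSK alone. Col1a1, a collagen gene of stromal cells, had one in all 3 LSK libraries and in IgG replicates 1 and 3. Of the 4 neutrophil markers Mpo, Elane, S100a8 and Csf3r, 0, 1 and 1 were open in LSK and 2, 1 and 4 in IgG. Of the 3 macrophage markers, 2 were open in every LSK and IgG library.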

How the data were processed

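DNase-seq was done on 12 libraries, and the 3 LSK and 3 IgG libraries were compared here, with the DN libraries given as values. The authors trimmed adapters, aligned paired reads to mm10 (BWA 0.7.12 and SAMtools 1.2 in the submitters' processing notes) and called peaks with hotspot2 at an FDR of 0.05, one list per library. The deposited lists give each peak of 150 bp a whole-number score with no stated meaning, which the authors made before deposit and which was used only for its order. Read depth is not given in the sources used here, so no counting interval could be attached to a peak, and a missing peak does not show closed chromatin.

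Peaks were merged at 1 bp of overlap. Ties at the limit of equal list length were broken in a seeded random order. Start sites are the 5′ ends of protein-coding gene records of GENCODE M21 on GRCm38 (mm10), an annotation other than the one in the study's methods, and the nearest gene is that of the nearest start site, within 100 kb for counts by gene or list and at any distance for the named distal and shared DHSs. Sequences were read from the same genome. Peak numbers and promoter shares were tested by an exact permutation test, and score ranks of shared DHSs by limma 3.58.1 in R 4.3.3 with Benjamini-Hochberg adjustment, after the scripts were tested on simulated data. Other settings were list length, score threshold, merging, promoter window, start sites, presence rule, ties, score scale and leaving out each library.

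The comparison, gene lists and motifs were chosen with earlier results of these data known. Named genes are the list members with a gained or lost promoter, the 8 leading promoters and 8 nearest genes in each direction, and the 5 shared DHSs at each end. Other genes named, among them Mpo, Elane, Camp, Ms4a3, Kit and Flt3, were chosen after their values were seen. One gene of the macrophage list was not in the annotation. A few members are not reported here by name, and 1 lost promoter is left out of the plot of list promoters.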

Additional observations from a re-analysis of the deposited data

How the results depend on the processing

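With lists of equal length lost DHSs fell to 5423, gained promoters numbered 137, lost promoters 397 and lost erythroid and megakaryocyte promoters 3, and the difference in promoter share, IgG minus LSK, turned from 5.17 to -1.88 percentage points. With the upper 50% of each list, gained DHSs numbered 2443, lost DHSs 7575 and lost erythroid and megakaryocyte promoters 3. With a peak needed in only 2 of 3 libraries of a group, there were 8164 gained and 23146 lost DHSs, 7500 and 8520 stringent ones, and 144 gained and 1361 lost promoters. A promoter window of 2.5 kb gave 114 gained promoters. The cause of these shifts was not tested, beyond the fewer peaks that shorter lists hold.

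When each library was left out in turn, gained DHSs ran from 4581 to 5976, lost DHSs from 14669 to 17685, stringent gained DHSs from 4295 to 5564 and stringent lost DHSs from 5547 to 6427. Gained promoters ran from 82 to 115 and lost promoters from 962 to 1132, gained neutrophil promoters from 7 to 8 and lost erythroid and megakaryocyte promoters from 5 to 6. By the rule, counts of gained and lost sites cannot fall when a library is left out, so these ranges show no stability. The difference in peaks ran from -22469.5 to -18215.5. Shared DHSs with a higher rank in IgG ran from 1036 to 1744 and those with a lower rank from 787 to 1710, the lowest of each without an LSK library.

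The counts over the neutrophil and the erythroid and megakaryocyte lists under other settings were chosen after seeing the data. Of 46 named promoters and distal DHSs, 37 held at equal list length and 34 with the upper 50% of each list. At these settings 2 and 3 had no difference between the groups left. Shorter lists, a narrower promoter window or a library left out cannot reverse a gained or lost call. With a window of 2.5 kb or with every start site a reversal was possible, and 0 of the named promoters reversed. The leading promoters among them were chosen to hold at equal list length, and leaving out a library cannot end a gained or lost call. All 10 named shared DHSs kept their call in the fits that held them, 5 of them at equal list length. No paired analysis was possible because the labels do not tie an IgG culture to an LSK isolate.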

Other observations

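Some list genes outside the named ones were gained only at equal list length. They were Adgre1, which encodes the macrophage surface protein F4/80, at score percentiles 74.3, 58.8 and 46.9 in IgG and 18.6 in LSK replicate 3, and Csf2ra, a chain of the GM-CSF receptor, at 81.1, 73.1 and 54.6 in IgG and 33.1 and 13.3 in LSK replicates 1 and 2. Zbtb46, a factor of dendritic cells, stood at 62.8, 8.88 and 21.2 in IgG and at 15.3 and 25.6 in LSK replicates 1 and 2. In each of these 3 genes 1 or 2 LSK libraries held a peak below the limit of equal list length. Away from its promoter, Adgre1 had a stringent lost DHS 14.5 kb upstream (73.4, 44.6 and 68.3 in LSK). A shared DHS 11.5 kb from its start was higher in rank in IgG, by 41.5. Of the 74 gained promoters, 42 had no peak in any DN library. Of the 877 lost promoters 351 had one in all 6 DN libraries and 58 in none. Over all genes, 48.3% to 57.1% of promoters were open in a single DN library. The shares of all promoters open in none or in all 6 are not given here, so these counts have no direct comparison.

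Peaks on chromosome Y numbered 18, 22 and 19 in the LSK libraries and 9, 6 and 3 in the IgG libraries, and 3, 4 and 3 of 4 Y-linked promoters were open in LSK against 2, 0 and 0 in IgG. The start site of Xist had a peak in LSK replicates 1 and 3 and in IgG replicates 1 and 3. The sex of the mice behind each library is not given in the sources used here, and the part of sex in the comparison was not tested.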
